A study of Mus musculus with 29 samples.

Results

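Interferon-stimulated genes were followed in the mouse hypothalamus from the first postnatal week to old age. The 39 genes are a list of gene symbols, and no threshold on measured values enters its rule. All 39 were found among the 24499 genes counted, and all 39 passed the filter on low counts, which left 16916 genes for testing. RNA was sequenced from hypothalamus of wild-type C57BL/6 mice, all labelled male, at 9 ages, and only age differs between the groups in the labels. Postnatal day 5 (P5) and 3 weeks had 3 libraries each, and 4 and 5 weeks had 4 each. The adult ages of 2, 6, 12 and 18 months had 3 each, and 24 months had 3, of which 2 were used. The mice were singly housed in a 12 h light and 12 h dark cycle, with dissection near 6 h of the light phase. The labels do not identify the animals, so the p-values rest on the variation among these libraries, which may be technical.

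Interferons are secreted proteins that act on cell-surface receptors. The type I and type III receptors signal through Janus kinases to a complex that contains STAT2 and IRF9 and binds the interferon-stimulated response element in promoters. The target genes sense foreign nucleic acids, block steps of viral replication, and raise or restrain further signalling. In brain, microglia and endothelial cells are known for strong responses to interferon, and a low level of many target genes is present without infection.

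The 39 members comprised 4 transcription factors of the interferon signal (Irf1, Irf7, Irf9, Stat2), 5 nucleic acid sensors (Ifih1, Ddx58, Dhx58, Zbp1, Eif2ak2) and 5 members of the OAS family (Oas1a, Oas2, Oas3, Oasl1, Oasl2). A further 3 were IFIT proteins, which bind viral RNA (Ifit1, Ifit2, Ifit3), and 3 belonged to the system of the ubiquitin-like protein ISG15 (Isg15, Usp18, Trim25). There were 4 GTPases (Mx1, Mx2, Gbp2, Gbp3), 2 membrane restriction factors (Bst2, Ifitm3) and 3 enzymes of nucleotides and metabolites (Rsad2, Cmpk2, Samhd1). The Parp9, Parp14 and Dtx3l group contributed 3, and 7 others completed the list (Ifi27, Ifi35, Ifi44, Xaf1, Sp100, Lgals3bp, Rtp4).

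Promoter sequences of 5 members are shown because they carry the same response-element letters and yet took different courses between P5 and 3 weeks. They are from RefSeq (GRCm38.p6), written 5′ to 3′ on the gene's strand. The capitals mark a repeat of GAAA and GAAA with any 2 bases between, the core of the response element, or its reverse complement, and a longer run of capitals holds overlapping matches. Each stretch lies upstream of the RefSeq start.
Ifit1, chr19:34640760-34640838, plus strand: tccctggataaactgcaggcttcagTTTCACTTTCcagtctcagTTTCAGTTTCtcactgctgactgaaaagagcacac
Ifit3, chr19:34583348-34583441, plus strand: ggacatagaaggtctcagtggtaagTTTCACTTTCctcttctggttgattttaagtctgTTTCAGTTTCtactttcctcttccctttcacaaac
Isg15, chr4:156200850-156200921, minus strand: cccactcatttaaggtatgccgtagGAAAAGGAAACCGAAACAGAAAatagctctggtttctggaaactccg
Oas3, chr5:120777700-120777759, minus strand: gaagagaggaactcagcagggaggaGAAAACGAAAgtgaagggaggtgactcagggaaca
Stat2, chr10:128270251-128270310, plus strand: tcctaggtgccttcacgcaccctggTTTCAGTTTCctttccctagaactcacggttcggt

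A promoter entry was matched by symbol for 29 of the 39 members, and not for Dhx58, Zbp1, Oas2, Usp18, Mx1, Mx2, Parp9, Parp14, Ifi27 and Rtp4. In the 250 bases before the start, 10 of the 29 (34.5%) held this GAAA repeat on either strand: the 5 above and Oas1a, Gbp2, Gbp3, Bst2 and Rsad2. Of the 27025 genes in the table, 936 (3.46%) held it in a promoter, and of the 32851 promoters 978 (2.98%) did. The letters TTCNNNGAA, a core bound by STAT dimers, were in 6 of the 29 (20.7%) and in 8.13% of genes. The searches were separate, and their matches can share the letters GAA.

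Gene counts per library ranged from 24661631 to 39783779. Levels are in CPM, counts scaled here to a common total by edgeR's effective library size, and a floor of 3 counts equalled 0.0754 to 0.122 CPM. Replicate 5 at 24 months held 2377580 counts in 1385 genes and was left out. At P5, replicates 1 and 2 had Xist at 746 and 791 CPM and no counts of 4 Y-linked genes, against their male label. Of the 3- to 5-week libraries, 4-week replicates 3 and 4 and all of 5 weeks had Rn7s2 at 21.7 to 29.6 CPM and the rest at 1.44 to 2.11, a split that separates 3 from 5 weeks in full. The summed level of 12 hypothalamus markers was 417 to 1640 CPM from 3 weeks on in all ages but 2 months, where it was 89.8 to 224, and 207 to 310 at P5. The summed level of 8 choroid plexus markers ranged from 14.6 to 4910 CPM between libraries. Bpifa2 was at 34 to 47 CPM in all 3-week libraries and 4-week replicates 1 and 2, and at 0.0587 CPM or less in all others.

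Most members had their lowest mean in the first postnatal week and their highest in late life. The mean level was lowest at P5 for 30 of the 39 and highest at 18 months for 20 and at 24 months for 8. The share of all genes with such extremes was not counted, so these counts only describe the members, and 24 months rests on 2 libraries. Over the 9 ages, 36 members were called by edgeR's quasi-likelihood F-test at an adjusted p below 0.05, against a background of 76.8% of all tested genes. The exceptions were Oasl1 (adjusted p = 0.0918), Mx1 (0.216) and Oas1a (0.227) by the same edgeR test. Over the 8 ages from 3 weeks on, an alternative added after the data were seen, 25 were called, against 43.2% of the 16765 genes tested there. In the heat map of all members, the P5 columns stand apart from every later age for most rows.

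**Figure D1:**
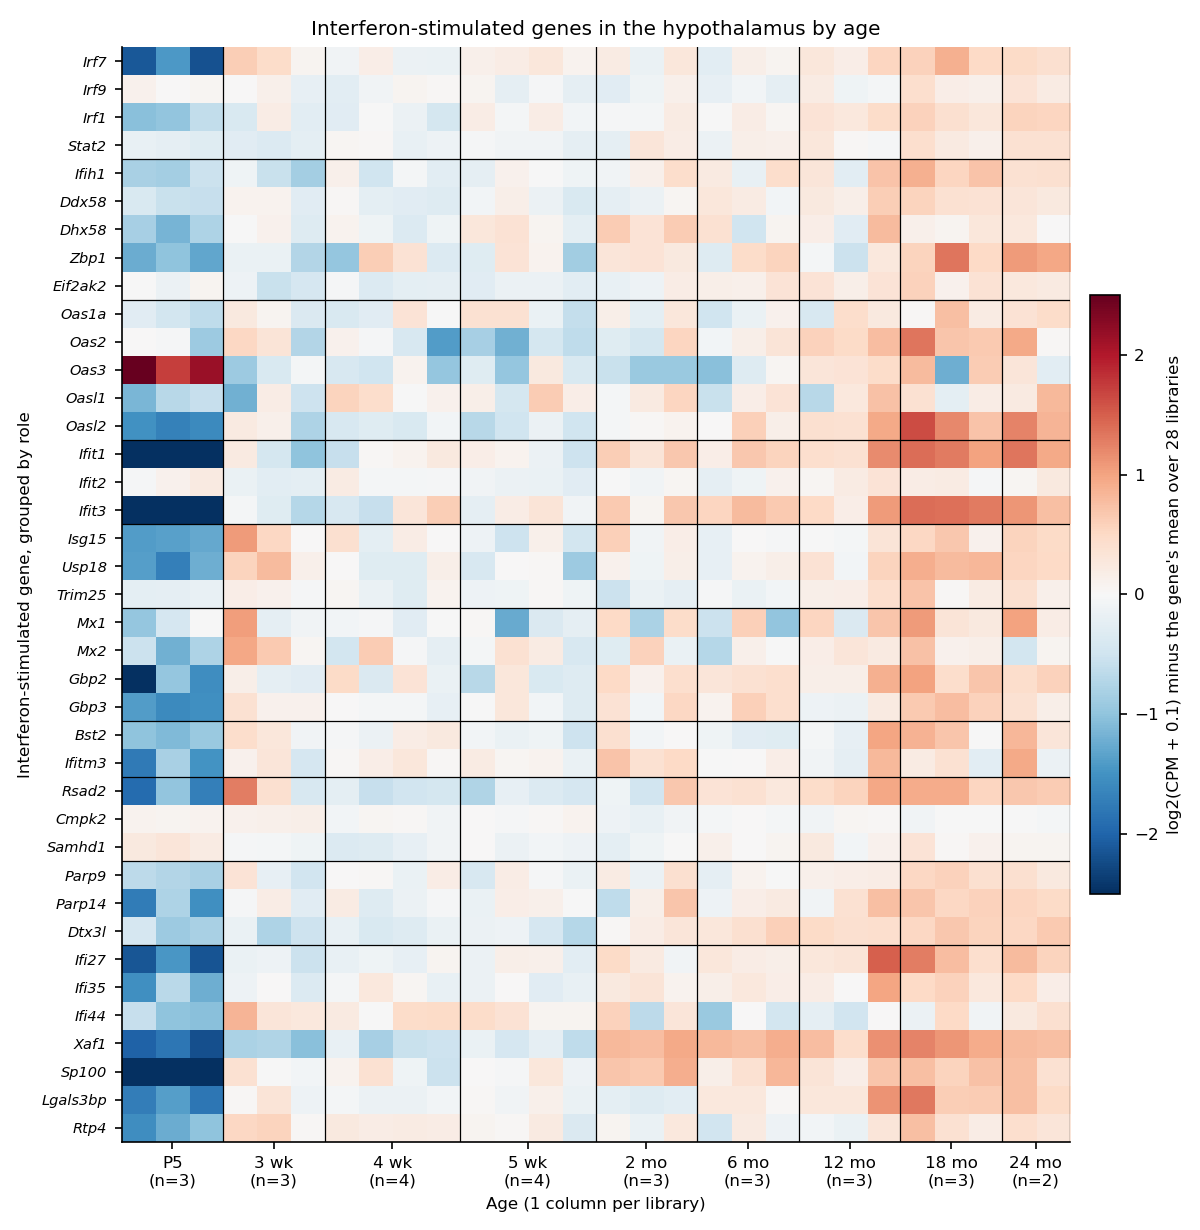
Level of the 39 genes in 28 libraries, as log2(CPM + 0.1) minus the gene's mean over the libraries, with 1 column per library, black lines between ages and between roles, and colours ending at -2.5 and 2.5. Most genes are blue at P5, where 30 of 39 have their lowest mean, and Oas3 is reddest there. Oas3 is paler red in some later libraries, those of 12 months (0.407 to 0.471 CPM) among them.

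Levels differed widely between members. On the scale of CPM per kilobase of exon at 18 months, Ifi27, a small mitochondrial and nuclear envelope protein, stood at 27.4 ± 8.17 (SD, n = 3). Ifitm3, which blocks fusion of viruses in endosomes, was at 19.6 ± 4.28 and Lgals3bp, a secreted glycoprotein, at 15.1 ± 4.46, and these 3 overlap within 1 SD of their neighbours. At the low end were Oas3 at 0.0583 ± 0.0413, Mx1 at 0.104 ± 0.0431 and Zbp1 at 0.133 ± 0.0566, which also lie within their spread. In CPM, 6 members had a mean of at least 10 at every age, and 3 (Zbp1, Oasl1 and Mx1) were below 1 at every age.

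Between P5 and 3 weeks most of the interferon-stimulated genes rose. Of the 39, 29 were called by edgeR, against 59.0% of all tested genes, 25 of them up, against 29.8%, and 4 down, against 29.3%. In 27 members every 3-week library was above every P5 library, against 33.4% of all tested genes, and in 3 every one was below, against 33.6%. The median log2 fold change of the members was 1.24, and that of all tested genes was -0.00903. Of the 25, all were also above every P5 library in every library of 4 weeks, 24 in every library of 5 weeks and 23 in every library of 2 to 24 months. A log2 fold change is given with its SE and a mean CPM with its SD, and adjusted p-values are from edgeR with the Benjamini-Hochberg method over all tested genes.

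Among the transcription factors, Irf7, which drives the amplifying phase of the type I response, had 0.535, 0.92 and 0.503 CPM at P5 and 4.12, 3.68 and 2.77 CPM at 3 weeks. The groups stood apart, and the log2 fold change was 2.42 ± 0.22 (adjusted p = 8.58e-10). Irf1, a factor of the type I and type II responses, went from 2.94, 3.05 and 3.99 CPM to 4.69, 6.97 and 5.12 CPM (0.74 ± 0.15, adjusted p = 0.000185). Stat2 and Irf9, whose proteins bind the response element together, were not called. Stat2 had 17, 16.6 and 15.6 CPM at P5 and 15.9, 15.1 and 16.3 at 3 weeks, with overlap (-0.05 ± 0.11, adjusted p = 0.699), and Irf9 had means of 13.5 and 12.8 CPM (adjusted p = 0.623).

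Of the sensors, 3 rose and 1 fell. Ddx58, which encodes the RNA helicase RIG-I, rose by 0.49 ± 0.16 and its relative Dhx58 by 0.92 ± 0.26 on the log2 scale. Zbp1, a sensor of left-handed nucleic acid, rose from 0.0396 ± 0.0157 to 0.15 ± 0.0527 CPM (adjusted p = 0.0419), levels of a few counts per library. Ifih1, the sensor MDA5, had 2.47, 2.39 and 2.99 CPM at P5 and 4.06, 2.96 and 2.38 at 3 weeks, with overlap and no call. Eif2ak2, the RNA-activated kinase PKR, had 8.13, 7.33 and 8.6 CPM at P5 and 7.49, 5.53 and 6.07 at 3 weeks. Its groups overlapped, and the call down (-0.33 ± 0.13, adjusted p = 0.0327) was lost without P5 replicate 1 or 3, and without 3-week replicate 2 or 3.

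The OAS family, whose catalytic members make the short adenylate chains that activate RNase L, split in direction. Oasl2, a member without that catalytic activity, had 1.64, 1.44 and 1.56 CPM at P5 and 5.68, 5.35 and 2.8 at 3 weeks. It rose by 1.57 ± 0.26 on the log2 scale (adjusted p = 1.18e-05). Oas3 had 3.24, 1.27 and 1.73 CPM at P5 and 0.12, 0.217 and 0.298 at 3 weeks. The groups were far apart, and Oas3 fell by 3.27 ± 0.50 on the log2 scale (adjusted p = 5e-06), the only member whose P5 level was above that of all later libraries. Oas1a had 0.602, 0.518 and 0.447 CPM at P5 and 0.902, 0.795 and 0.565 at 3 weeks and was not called (adjusted p = 0.173), nor were Oas2 and Oasl1, all 3 below 1 CPM at these ages.

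The IFIT genes lie together on chromosome 19 and also split. Ifit3 had 0.468, 1.15 and 0.67 CPM at P5 and 8.06, 6.72 and 5.06 at 3 weeks (3.09 ± 0.35, adjusted p = 5.72e-08). Ifit1 had 0.167, 0.316 and 0.307 CPM at P5 and 3.34, 2.09 and 1.37 at 3 weeks (3.07 ± 0.36, adjusted p = 9.4e-08). Both of these carry 2 matches of the response-element letters in the promoters printed above. Ifit2 was far more abundant at P5, with 20.9, 23.1 and 24.9 CPM, and had 19.1, 17.8 and 18 CPM at 3 weeks, a fall by 0.33 ± 0.10 on the log2 scale (adjusted p = 0.00581). Ifit3b, a near copy of Ifit3 from the list of further interferon-stimulated genes, rose by 4.11 ± 0.33 from 0.233 to 4.17 CPM. Reads shared by Ifit3 and Ifit3b cannot be told apart here, so their separate values are uncertain.

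In the ISG15 system, the modifier and the enzyme that removes it rose together. Isg15 had 0.669, 0.69 and 0.726 CPM at P5 and 4.09, 2.78 and 1.93 at 3 weeks (2.07 ± 0.27, adjusted p = 3.4e-07). Usp18, which strips ISG15 from proteins and restrains the type I receptor, had 0.568, 0.431 and 0.642 CPM at P5 and 2.44, 2.89 and 1.79 at 3 weeks, a 4.29-fold rise (adjusted p = 1.44e-07). Trim25, a ubiquitin and ISG15 ligase, was higher in every 3-week library but not called, with means of 10.6 and 13.2 CPM (adjusted p = 0.0618).

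All 3 GTPases that were called rose. Gbp3, a guanylate-binding protein, had 1.87, 1.61 and 1.68 CPM at P5 and 6.65, 5.45 and 5.45 at 3 weeks (1.77 ± 0.18, adjusted p = 6.21e-09). Gbp2 rose by 1.56 ± 0.34 and Mx2 by 1.59 ± 0.36 on the log2 scale. Mx1, the antiviral dynamin-like GTPase that many inbred strains carry in a defective form, had 0.0669, 0.144 and 0.223 CPM at P5 and 0.571, 0.181 and 0.208 at 3 weeks, with overlap and no call. The annotation used here (GENCODE M21) lists Mx2 as a polymorphic pseudogene.

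Both membrane restriction factors rose. Bst2, the protein tetherin that holds budding virus at the cell surface, had 2.37, 2.21 and 2.51 CPM at P5 and 6.71, 5.96 and 4.61 at 3 weeks (1.28 ± 0.26, adjusted p = 0.000169). Ifitm3 had 3.48, 6.87 and 4.25 CPM at P5 and 13, 15 and 8.96 at 3 weeks (1.33 ± 0.29, adjusted p = 0.000339). Neither gene's groups overlapped.

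The neighbours Rsad2 and Cmpk2 on chromosome 12 differed. Rsad2, the enzyme viperin that makes a chain-terminating nucleotide, had 0.468, 0.978 and 0.559 CPM at P5 and 5.08, 2.75 and 1.52 at 3 weeks (2.21 ± 0.35, adjusted p = 7.11e-06). Cmpk2, a mitochondrial nucleotide kinase, had means of 40.0 and 41.6 CPM and was not called (adjusted p = 0.382). Samhd1, which degrades deoxynucleotides, had 23.8, 25 and 23.1 CPM at P5 and 19.8, 19.6 and 18.6 at 3 weeks, and fell by 0.31 ± 0.09 on the log2 scale (adjusted p = 0.00427).

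Of the ADP-ribosylation group, Parp14 had 1.1, 2.24 and 1.28 CPM at P5 and 3.85, 4.48 and 3.18 at 3 weeks (1.30 ± 0.28, adjusted p = 0.000276), and Parp9 rose by 0.69 ± 0.19. Dtx3l, the ubiquitin ligase that pairs with PARP9, was not called (adjusted p = 0.218). Parp9 and Dtx3l lie head to head on opposite strands of chromosome 16 and share 458 exon bases in GENCODE M21, and part of their counts is uncertain because the sources used here do not give the strand setting.

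All 7 of the remaining members rose. Sp100, a component of PML nuclear bodies, had 0.234, 0.345 and 0.335 CPM at P5 and 3.43, 2.56 and 2.47 at 3 weeks. Its log2 fold change of 3.18 ± 0.27 (adjusted p = 3.52e-10) was the highest of the 39. Lgals3bp had 6.96, 8.91 and 6.59 CPM at P5 and 23.7, 28.8 and 21.1 at 3 weeks (1.71 ± 0.20, adjusted p = 1.31e-07). Rtp4, a receptor chaperone, had 1.04, 1.32 and 1.56 CPM at P5 and 4.69, 4.8 and 3.3 at 3 weeks (1.70 ± 0.22, adjusted p = 3.02e-07). Ifi27 had 4.95, 7.97 and 4.83 CPM at P5 and 19.7, 20.2 and 15.1 at 3 weeks (1.63 ± 0.28, adjusted p = 3e-05). Ifi44 rose by 1.56 ± 0.33 and Xaf1 by 1.24 ± 0.21 on the log2 scale, and Ifi35 rose from 1.26 ± 0.423 to 2.54 ± 0.326 CPM.

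**Figure D2:**
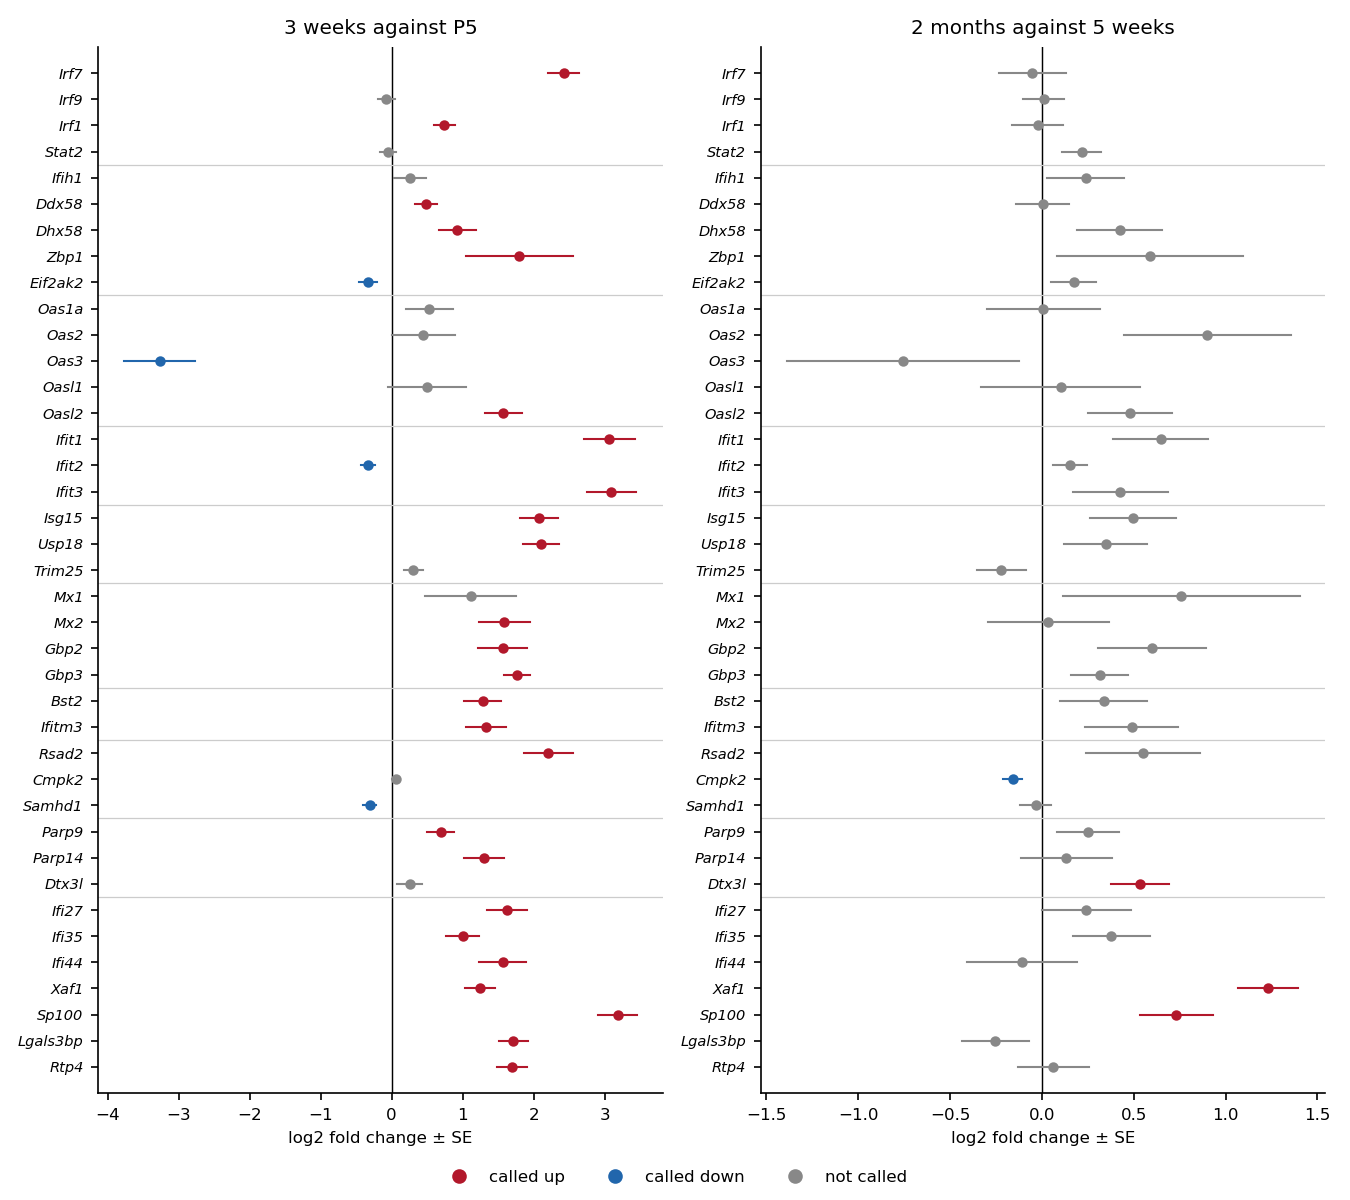
Log2 fold change ± SE of the 39 genes between 3 weeks and P5 (left) and between 2 months and 5 weeks (right), with called genes in colour and grey lines between roles. The left panel holds 25 genes called up and 4 called down, and the right panel 3 called up and 1 called down.

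Seen against the promoters, 7 of the 10 members with the GAAA repeat were up at 3 weeks, 1 was down (Oas3) and 2 were not called (Stat2 and Oas1a). Of the 19 members whose promoter entry lacks these letters, 10 were up, 3 down and 6 not called. Members of all 3 courses held the repeat.

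The rest of the pathway moved in part with the members. Interferon genes themselves were at the limit of counting: the 16 ligand genes had 87 counts in all over 28 libraries, 50 of them from Ifng, 6 had none (Ifnb1 and Ifna1 among them), and no ligand passed the filter. Of 6 receptor genes, 2 were up and 2 down at 3 weeks, with Ifnar1 falling by 0.59 ± 0.06 and Ifngr2 by 1.06 ± 0.11 on the log2 scale and Ifnar2 up by 0.66. Of 9 Janus kinases, STATs and other IRFs, 5 were up, Irf5 (1.76) among them, and 2 down, Jak2 (-0.42) among them. Of 15 sensing genes, 8 were up, such as the double-stranded RNA receptor Tlr3 (1.40), and 1 was down. Of 17 negative regulators, 8 were up and 3 down. Of 62 tested further interferon-stimulated genes, 39 were up and 10 down. Of 12 genes of MHC class I presentation, 7 were up, among them H2-K1, from 10 ± 0.777 to 36.3 ± 2.38 CPM, and 1 was down.

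Markers of several cell types moved in the same interval. All 18 microglia markers were up, and their summed level went from 244 to 271 CPM at P5 to 554 to 617 CPM at 3 weeks. Of 12 endothelial markers 8 were up, with sums of 270 to 289 CPM and 542 to 564 CPM, and all 8 oligodendrocyte markers, all 6 B and plasma cell markers and all 6 red blood cell markers were up. Astrocyte markers summed to 1680 to 1810 CPM at P5 and 3990 to 4200 CPM at 3 weeks. Pericyte markers summed to 172 to 187 CPM and 260 to 273 CPM. The summed level of neuron markers went the other way, from 6000 to 6660 CPM to 5180 to 5670 CPM. That list was mixed: Tubb3 (1980 to 833 CPM) and Map2 (1490 to 919 CPM) were called down and Snap25 (379 to 1100 CPM) up. The median of its mean log2 CPM was 8.77 at P5 and 8.81 at 3 weeks. None of 8 fibroblast markers was called, and of 8 border macrophage markers 1 was down. In bulk tissue, fewer cells of a type and less RNA per cell cannot be told apart, and the part of these cell types in the members' rise was not tested. Without the P5 libraries that hold Xist and no Y-linked counts, only P5 replicate 3 was left, so only effect sizes are given. The median log2 fold change of the members was then 1.27. Irf1 was at 0.47 (0.74 with all P5 libraries), Samhd1 at -0.27 (-0.31) and Eif2ak2 at -0.44 (-0.33).

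From 3 to 5 weeks, the weeks around puberty, 1 of the 39 members was called, against 2.15% of all tested genes, and the median log2 fold change was -0.0235. None was called up, against 0.698%, and 1 down, against 1.45%, and 6 members had an unadjusted p below 0.05 by edgeR. Stat2 and Xaf1 were higher in every 5-week than in every 3-week library, against 7.29% of all tested genes, and Cmpk2 and Usp18 lower, against 8.80%. Usp18 had 2.44, 2.89 and 1.79 CPM at 3 weeks, 1.65, 1.31, 1.31 and 1.82 at 4 weeks and 1.21, 1.64, 1.67 and 0.823 at 5 weeks, and fell by 0.82 ± 0.22 on the log2 scale (adjusted p = 0.0477). Its partner Isg15 went from 4.09, 2.78 and 1.93 CPM to 1.75, 1.31, 2.09 and 1.36 with overlap and was not called (-0.85 ± 0.23, adjusted p = 0.0515), nor was Rsad2 (-1.05 ± 0.30, adjusted p = 0.0777). With the library set of Rn7s2 as a term the value of Usp18 was -0.89 and its adjusted p from edgeR 0.448, and no member was called. Its call was also lost without 3-week replicate 1 or 2 or 5-week replicate 1 or 4. The count of calls was 3 without 3-week replicate 3 and 2 without 5-week replicate 3.

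Among other genes of the pathway in this interval, Ube2l6, the conjugating enzyme of ISG15, fell by 0.90 ± 0.18 from 10 to 5.36 CPM (adjusted p = 0.00586). Isg20, an exonuclease, fell by 1.62 ± 0.32 from 3.26 to 1.06 CPM, and Traf3, an adaptor of the sensing pathways, by 0.86 ± 0.09 from 148 to 81.2 CPM. Of the 62 further interferon-stimulated genes, 2 were down and 1 up. All 6 red blood cell markers were down in this interval and 1 of 18 microglia markers was down, and their part was not tested.

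Into adulthood, from 5 weeks to 2 months, 31 of the 39 members were higher and 8 lower, and 8797 of the 16916 tested genes were higher. Of the members 3 were called up, against 7.13% of all tested genes, and 1 down, against 9.43%. Xaf1, an interferon-induced factor of cell death, had 2.92, 2.43, 2.79 and 2.08 CPM at 5 weeks and 5.87, 5.71 and 6.42 at 2 months. The groups were far apart. In 8 members, Xaf1 included, every 2-month library was above every 5-week library, against 11.6% of all tested genes, and in 3 (Cmpk2, Trim25 and Lgals3bp) every one was below, against 13.5%. The log2 fold change of Xaf1 was 1.23 ± 0.16 (adjusted p = 5.22e-05), and the later ages stayed between 4.49 and 7.86 CPM.

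Sp100 had 2.61, 2.54, 3.18 and 2.36 CPM at 5 weeks and 4.24, 4.14 and 4.95 at 2 months (0.73 ± 0.20, adjusted p = 0.014). Dtx3l had 3.19, 3.21, 2.6 and 2.11 CPM and then 3.63, 4.05 and 4.41 (0.54 ± 0.16, adjusted p = 0.0218). Cmpk2 fell by 0.16 ± 0.05 on the log2 scale, from 38.4, 37.2, 39.1 and 40.4 CPM to 35, 33.5 and 35.8 (adjusted p = 0.0366). Each of these 3 calls was lost under 2 or more alternatives, and that of Xaf1 under none of those run. With 6 months in place of 2 months, Xaf1 and Dtx3l were called again, Oasl2 (0.73) and Eif2ak2 (0.42) were called up, and Sp100 and Cmpk2 were not called. Leaving out 5-week replicate 3 or 4, or 2-month replicate 12 or 13, left 2 calls.

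Of the other pathway genes, Tlr3 rose by 0.55 ± 0.11 from 9.25 to 13.6 CPM at 2 months, Nmi, an IFI35 partner, by 0.57 ± 0.14, and Irf3 by 0.29 ± 0.08, while the inhibitor Socs1 fell by 0.78 ± 0.19. The 2-month libraries were also those with low hypothalamus markers, of which 11 of 12 were down, with sums of 627 to 1020 CPM at 5 weeks. Of 10 astrocyte markers 5 were up and 1 down. Rn7s2 also separated the groups in full, at 24.2 to 29.6 CPM at 5 weeks and 0.177 to 0.435 CPM at 2 months. The comparison of 6 months with 5 weeks holds both differences too. At 6 months Rn7s2 was at 0.175 to 1.78 CPM and the hypothalamus markers summed to 417 to 561 CPM. The part of these in the members' changes was not tested.

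**Figure D3:**
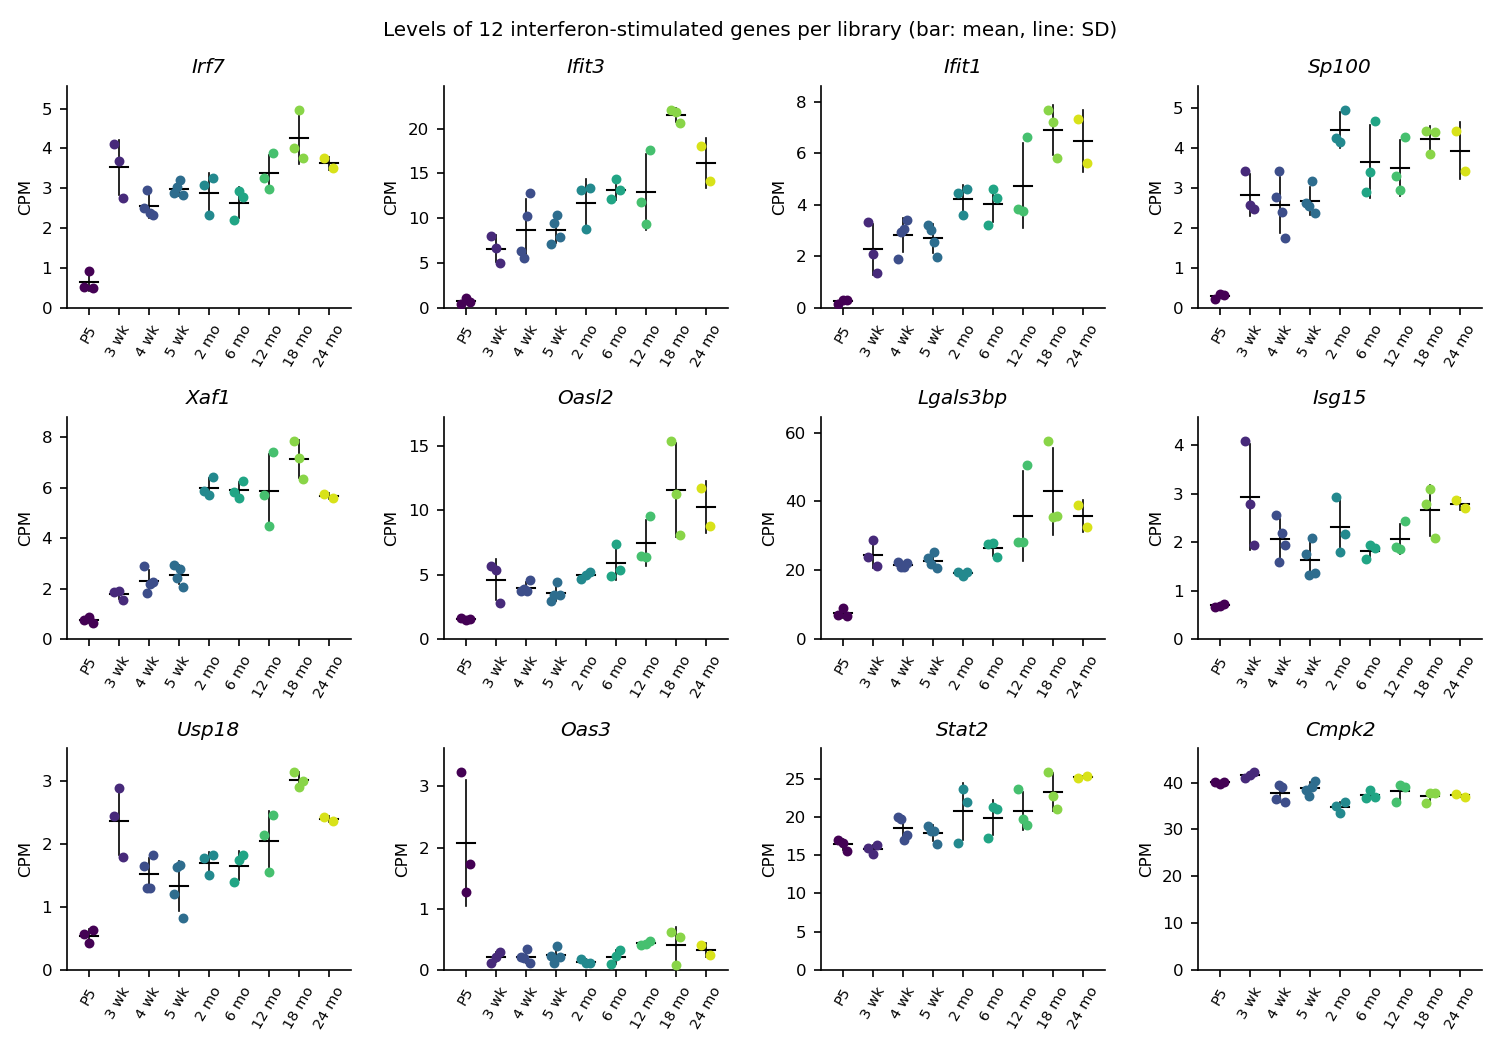
CPM of 12 interferon-stimulated genes in each library by age, with points for libraries, a bar for the mean and a line for the SD, and each vertical axis starting at 0. Irf7, Ifit3, Ifit1 and Sp100 step up after P5, Xaf1 again at 2 months, Oasl2 and Lgals3bp climb to 18 months, Oas3 is high only at P5, and Cmpk2 stays between 33.5 and 42.3 CPM.

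Through adult life, from 2 to 24 months, most members had a positive slope. The slope of log2 expression per month was positive for 36 of the 39, with a median of 0.0213 per month, and for 8382 of the 16633 genes tested, with a median of 0.000118. Of the members 7 were called, against 7.43% of all tested genes, all 7 up, against 3.08%, and none down, against 4.35%. At an unadjusted p below 0.05 there were 21 members and 4112 genes. The 7 calls came from 5 roles and included no sensor, GTPase or membrane restriction factor.

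Oasl2 had 4.68, 5 and 5.18 CPM at 2 months, 4.93, 7.41 and 5.37 at 6 months, 6.48, 6.39 and 9.54 at 12 months, 15.4, 11.3 and 8.05 at 18 months and 11.7 and 8.8 at 24 months. All 5 libraries of 18 and 24 months lay above all 3 of 2 months. Its slope of 0.0589 ± 0.0110 per month (adjusted p = 0.00846) makes a log2 change of 1.30 ± 0.24 over 22 months. Lgals3bp had 19.6, 18.4 and 19.4 CPM at 2 months, 27.7, 28 and 23.7 at 6 months, 28.2, 28.2 and 50.7 at 12 months, 57.6, 35.4 and 35.8 at 18 months and 38.9 and 32.4 at 24 months. Its log2 change over 22 months was 1.07 ± 0.26 (adjusted p = 0.0253), with single high libraries at 12 and 18 months.

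Irf1 had 5.98, 5.92 and 7.08 CPM at 2 months and 9.2, 8.11, 7.54, 9.09 and 8.95 CPM in the 18- and 24-month libraries, without overlap (0.56 ± 0.11 over 22 months, adjusted p = 0.0113). Irf9 had 10.6, 12 and 14.1 CPM at 2 months and 17.5, 14.6, 14.2, 16.4 and 15 CPM at 18 and 24 months (0.47 ± 0.12, adjusted p = 0.027). The gap between these groups of Irf9 was narrow, 14.1 against 14.2 CPM. Trim25 had 8.56, 11.1 and 10.6 CPM at 2 months and 20.3, 12.6, 14.4, 16.5 and 13.5 CPM at 18 and 24 months (0.65 ± 0.17, adjusted p = 0.0294).

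Ifit1 had 4.46, 3.61 and 4.6 CPM at 2 months and 7.68, 7.22, 5.83, 7.33 and 5.61 CPM at 18 and 24 months (0.85 ± 0.22, adjusted p = 0.0311). Usp18 had 1.78, 1.51 and 1.82 CPM and then 3.15, 2.91, 3, 2.43 and 2.37 CPM (0.83 ± 0.22, adjusted p = 0.0325). Both pairs of groups were apart, and these are the genes whose calls were lost most often, each under 8 of 19 alternatives. Of the members not called, Ifit3 (0.75 ± 0.24, adjusted p = 0.0688), Irf7 (0.60 ± 0.20, adjusted p = 0.0706) and Dtx3l (0.39 ± 0.13, adjusted p = 0.0675) came next by p-value. Stat2 had means of 20.8 CPM at 2 months and 25.2 CPM at 24 months (0.31 ± 0.12, adjusted p = 0.133), and the 3 with a negative slope were Dhx58 (-0.27 ± 0.27 over 22 months), Sp100 (-0.04 ± 0.20) and Ifitm3 (-0.02 ± 0.28), the last 2 with positive slopes without the 2-month libraries.

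The calls of the trend rest on the 2-month libraries. Without them no member was called by edgeR, and none of 16553 genes, while 38 of the 39 slopes were positive with a median of 0.0269 per month. The slope of Oasl2 was then 0.0557 (adjusted p = 0.299). Leaving out 2-month replicate 11, 12 or 13 left 3, 2 and 3 calls, and leaving out 24-month replicate 2 left 4.

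Late life against middle life, a contrast without the 2-month mean, gave no call. With the 18- and 24-month means against those of 6 and 12 months, 37 of 39 members were higher, with a median log2 difference of 0.28, and 8186 of 16916 tested genes were higher, with a median of -0.00326. By edgeR 0 of 39 were called, against 0.0296% of all tested genes, 17 members and 1107 genes had an unadjusted p below 0.05, and DESeq2 called 1 member, Oasl2 (0.72, adjusted p = 0.0408 by DESeq2). By edgeR Oasl2 had means of 11 ± 2.88 and 6.68 ± 1.65 CPM (0.72 ± 0.17, adjusted p = 0.195). Parp9 was the only member whose libraries did not overlap, with 5.47, 5.7, 5.08, 5.04 and 4.52 CPM late and 3.25, 4.05, 3.8, 4.18, 4.26 and 4.36 CPM in middle life, against 0.248% of all tested genes.

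**Figure D4:**
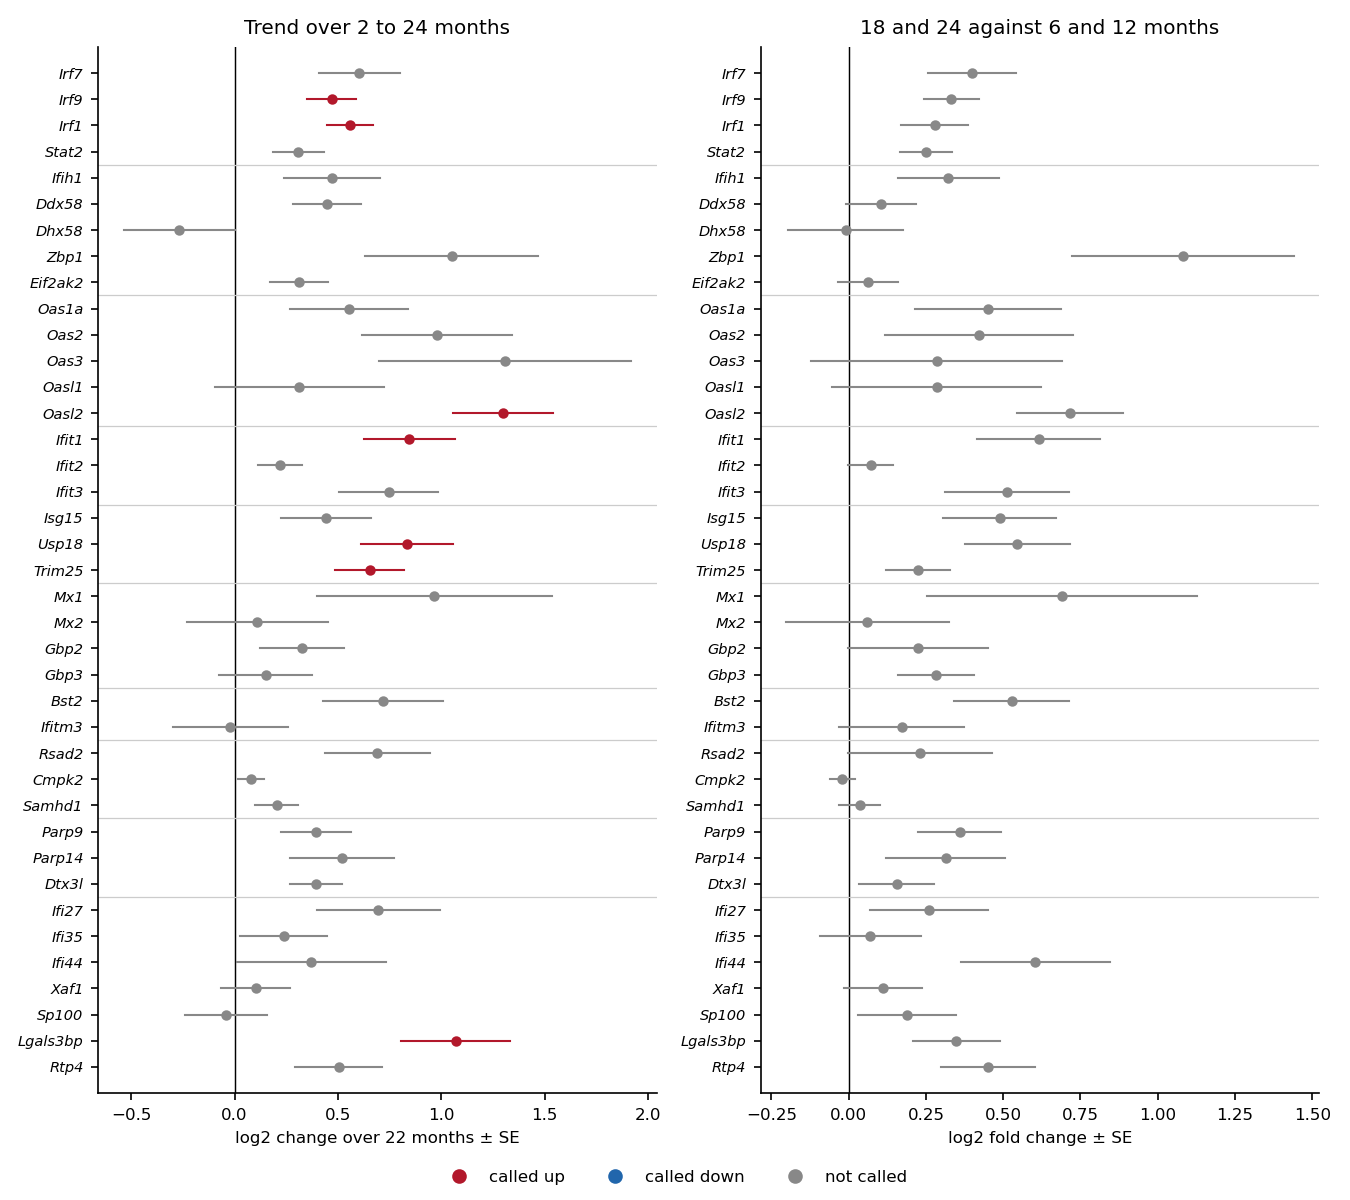
Log2 change ± SE of the 39 genes over 22 months from the slope through 2 to 24 months (left) and log2 fold change ± SE of 18 and 24 against 6 and 12 months (right). The left panel has 36 points above 0, 7 of them called, and the right panel 37 points above 0 and none called.

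Other interferon-related genes were called over adult life too. Of 12 genes of MHC class I presentation 6 were called up, among them the immunoproteasome subunits Psmb8 (from 4.05 CPM at 2 months to 7.31 CPM at 18 and 24 months) and Psmb9 (2.47 to 4.41 CPM) and the peptide transporter Tap1 (3.63 to 7.85 CPM). Of 62 further interferon-stimulated genes 7 were up, Gbp6 (2.02 to 6.60 CPM), Igtp (5.04 to 8.27 CPM) and Zc3hav1 (5.01 to 8.31 CPM) among them, and 1 was down. Stat3 rose from 67.6 to 87.9 CPM, and no receptor gene or negative regulator was called. All these calls come from the same fit as those of the members and hold the same 2-month libraries.

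Cell type markers moved beside them. Of 18 microglia markers 4 were called up, among them the complement genes C1qa, C1qb and C1qc, and the summed level was 448 to 594 CPM at 2 months, 606 to 654 at 18 months and 633 to 672 at 24 months. Of 10 T and NK cell markers 3 were tested, and 1 was called, Cd8a, up from 0.0674 to 0.376 CPM. The others differed in course: Cd4 had 42 counts in all at 2 months, 41 at 18 months and 15 at 24 months, and Gzmb 2, 13 and 14. The summed level of all 10 was 2.51 to 2.76 CPM at 2 months, 3.26 to 5.18 at 18 months and 3.61 to 3.87 at 24 months. Markers of oligodendrocytes (8 of 8), pericytes (6 of 8), fibroblasts (4 of 8), endothelial cells (3 of 12) and astrocytes (3 of 10) were called down. So were the neuron markers Nefl (540 to 328 CPM) and Snap25 (1870 to 1380 CPM) and the border macrophage marker Pf4 (1.1 to 0.39 CPM). All 12 hypothalamus markers had a positive slope, with a median of 0.0645 per month, and 1 was called. The 24-month libraries had Rn7s2 at 59 and 60 CPM, and the other adult libraries at 5.74 CPM or less. The part of these cell types and library differences in the members' slopes was not tested.

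**Figure D5:**
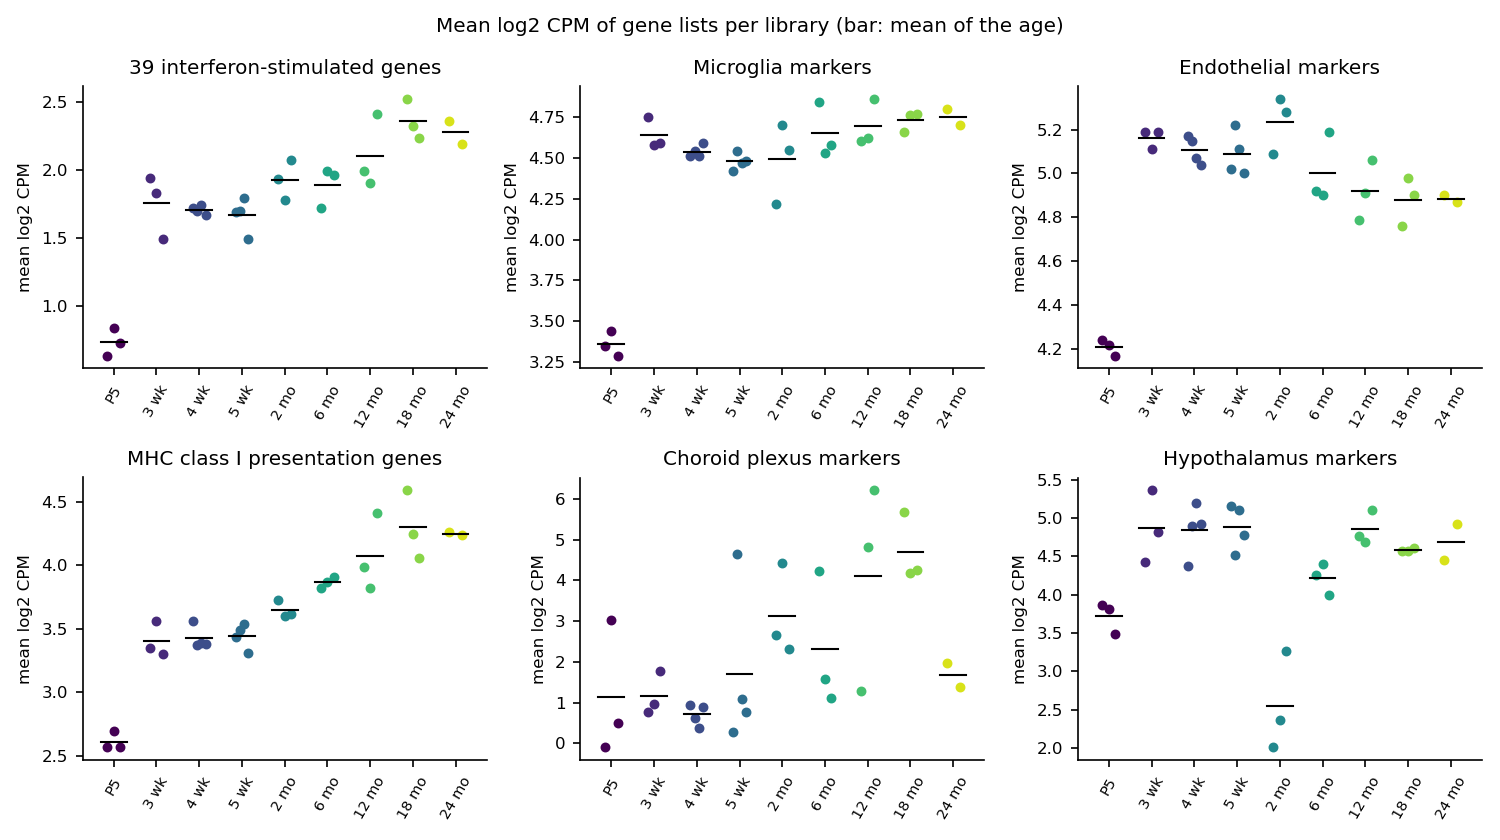
Mean log2 CPM of 6 gene lists in each library by age, with points for libraries and a bar for the mean of each age. The 39 genes and the MHC class I genes climb after 5 weeks. Microglia markers step up after P5, with medians of 4.47 at 5 weeks, 4.76 at 18 months and 4.75 at 24 months. Choroid plexus markers scatter between libraries of an age, and hypothalamus markers are low at 2 months.

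Single libraries also shifted the members together. In 12-month replicate 28, 35 of the 39 were above the mean of their age, by 0.31 on average on the log2 scale, and Ifi27 was at 62.4 CPM against 26.7 and 27.5 CPM in the others. That library also had the highest level of the choroid plexus gene Ttr among all, 4550 CPM, and of Avp, 1040 CPM. In 3-week replicate 3 only 4 members were above their age mean, by -0.268 on average, and in 5-week replicate 4 only 5 (-0.18). Trim25 at 18 months ranged from 12.6 to 20.3 CPM. The part of tissue composition in these shifts was not tested.

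Within ages, the correlation of each member with the mean of the other members over 28 libraries was highest for Rtp4 (0.85), Ifit1 (0.748), Oasl2 (0.721) and Lgals3bp (0.694). It was near 0 or negative for Stat2 (0.0992), Oas3 (-0.0177) and Cmpk2 (-0.118). The libraries share depth and dissection with every gene in them, so these values are a description. Stat2, Oas3 and Cmpk2 were not called up between P5 and 3 weeks. Neither were Ifih1 (0.581), Ifit2 (0.494) and Eif2ak2 (0.444), so the members that did not rise were not only those of low correlation.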

How the data were processed

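Paired-end RNA libraries of hypothalamus were processed with HISAT2 2.1.0 and HTSeq 0.9.1 on mm10 (GRCm38), per the submitters' processing notes. The files deposited by the authors hold raw counts for 24499 gene symbols and 5 HTSeq summary lines, which took 26.1 to 32.5% of a library and were left out. The sources used here do not give the annotation, strand setting or trimming. Libraries with fewer than 5000 genes counted were left out, which removed 1 of 29.

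Counts were fitted with edgeR 4.0.16 (R 4.3.3; limma 3.58.1), with TMM scaling, filterByExpr by age, a robust quasi-likelihood fit with 1 mean per age over 28 libraries, and two-sided tests, and adjusted by the Benjamini-Hochberg method over all tested genes in each comparison, called below 0.05. The adult trend is the slope per month over 14 libraries (16633 genes). Fold changes of low genes depend on edgeR's prior count. DESeq2 1.42.0 and other settings were alternatives. Positions and exon lengths are from GENCODE M21.

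The members and lists were chosen with earlier results of these data known. Values per library are given for up to 5 called members per direction and comparison (smallest p, no overlap, at least 1 CPM) and for a panel of 22 given whatever the result. Other pathway genes are up to 3 called per list by smallest p. Parp9 in late life, the Cd4 and Gzmb counts and the members of 5-week and 2-month groups without overlap were singled out after their values were seen. So were the within-age correlations that are named. No 2 libraries of the same age agreed within sampling noise, and pairs across ages were not compared.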

Additional observations from a re-analysis of the deposited data

Results flagged for a closer look

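Among 78 groups of 4 libraries (the 39 genes at 4 and at 5 weeks), 2 (2.56%) held a library whose gap to the nearest other exceeded Dixon's 95% limit, where chance gives about 1 in 20. Ifit2 was at 24.6 CPM in 4-week replicate 1 and at 20.5 to 21 CPM in the other libraries of that age. Trim25 was at 12.7 CPM in 5-week replicate 3 and at 11.4 to 11.5 CPM in the others. The 24-month library that was left out held counts of 1 member only, 172 counts of Sp100.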

How the results depend on the processing

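Of the tests of single members under alternatives, 1548 kept their direction and side of the threshold, 64 lost a call, 16 gained one and 48 turned in sign, 0 of the 48 with a call in either fit. The 1 call between 3 and 5 weeks became 0 with DESeq2 size factors in edgeR, without a filter on low counts, with only the ages compared, with the Rn7s2 library set as a term and with the replicate number as a block, and 3 in DESeq2. Leaving out 1 library gave 0 to 3 calls there, 2 to 5 between 5 weeks and 2 months and 2 to 9 for the adult trend, which had 0 without the 2-month libraries. Late against middle life had 1 call in DESeq2. Deviations of same-numbered libraries correlated at 0.0416, 0.131 and 0.0535 for P5 with 3 weeks. For 3 with 5 weeks they correlated at -0.125, -0.209 and -0.119. For P5 with 3 weeks, replicates 1 and 2 correlated best with their own number, and replicate 3 did not. For 3 with 5 weeks, no replicate did. Replicate numbers thus gave no clear pairing of these libraries. The replicate block left 28 calls of 36 tested members between P5 and 3 weeks, against 64.8% of all genes tested there.

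Over all genes, calls between 3 and 5 weeks were 363 in the reported fit, 13 with the replicate block and 32 with the library set as a term. Between 5 weeks and 2 months they were 2802 and 1534 with only the ages compared. For the adult trend they were 1236, 2027 in DESeq2, 764 without the 24-month libraries and 0 without the 2-month libraries, and for late against middle life 5, 41 in DESeq2 and 0 with only those ages. The cause was not tested. Members below 1 CPM, such as Zbp1, Oasl1 and Mx1, rest on few counts per library, and 24 months on 2 libraries.

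The values that turned in sign were all uncalled. Without the P5 libraries that hold Xist, Stat2 was at 0.0113 on the log2 scale at 3 weeks against P5. With the Rn7s2 library set as a term, 5 against 3 weeks gave -0.507 for Oas1a, -0.165 for Ifit1, -0.556 for Ifit3, -0.0298 for Ifitm3 and 0.510 for Sp100. With 6 months in place of 2 months, the difference from 5 weeks was 0.00776 for Irf1, -0.262 for Oas1a, -0.0246 for Bst2, 0.149 for Samhd1, 0.217 for Lgals3bp and -0.107 for Rtp4. With 18 months alone against 6 and 12 months, Ifitm3 was at -0.0198. Without the 2-month libraries the adult slope was 0.0197 per month for Ifitm3 and 0.0110 for Sp100. Leaving out 1 library at a time, 5 against 3 weeks ranged from -0.115 to 0.245 for Oas1a, -0.0190 to 0.644 for Ifit1, -0.158 to 0.187 for Ifitm3, -0.0560 to 0.183 for Parp14, -0.174 to 0.0857 for Sp100 and -0.205 to 0.0188 for Lgals3bp. Likewise, 2 months against 5 weeks ranged from -0.148 to 0.0816 for Irf7, -0.113 to 0.0230 for Irf1, -0.183 to 0.164 for Oas1a, -0.0940 to 0.0150 for Samhd1, -0.230 to 0.409 for Parp14 and -0.0525 to 0.172 for Rtp4. The adult slope ranged from -0.0204 to 0.00596 for Ifitm3 and -0.00610 to 0.00300 for Sp100, and late against middle life from -0.159 to 0.395 for Ifitm3 and -0.0109 to 0.0782 for Samhd1.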
